A study of Acer rubrum with 15 samples.

Results

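Plant genomes hold many small hairpin genes whose products have no named family, and the 59 miRNAs described here are of that kind. They are the miRNAs of leaves of 'Autumn Blaze' cuttings of Acer rubrum, the red maple, that carry only a predicted name, novel_mir followed by a number. The deposited table lists 243 miRNAs, of which 167 are mature miRNAs with known names and 76 are predicted. The members were set by name: 17 predicted miRNAs were left out by their numbers, and the remaining 59 were kept. The choice was made with earlier results of these data known, so the 59 are not an unselected set. The 17 left out took 36.1% of all miRNA reads, against 4.68% for the 59. The study asked how leaf colour change responds to light and temperature, and sequenced small RNA from 15 leaf libraries, 3 in each of 5 groups. All cuttings had stood in a greenhouse at 25 to 30 °C. LL leaves had 40% light with 15 °C days and 5 °C nights, and LC leaves had 100% light at the same cool temperatures. CL leaves had 40% light with 30 °C days and 20 °C nights, and CC leaves had 100% light at these warm temperatures. These 4 groups were taken at day 14. Control leaves were taken at day 0, with no light level given in the labels, so a difference from Control holds time as well as the regime. The labels call the 3 libraries of a group biological replicates but do not say whether they came from separate plants. The p-values therefore measure the spread between these libraries.

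In plants, a miRNA is cut by a Dicer-like enzyme from a transcript that folds back on itself, and it is loaded into an ARGONAUTE protein. There it pairs with messenger RNAs of matching sequence, which are cut or translated less. Conserved families are known by number and by target, many of them transcription factors. A predicted miRNA is one that a program proposes from reads at a place in the genome whose surrounding sequence can fold into a hairpin. The names used here give neither a family nor a target, so no role is given to any of the 59, and the results are ordered by pattern of level. No mature sequence was available for them, and none is printed. Reads of near-identical members could have been divided between names, which could not be checked.

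Each predicted miRNA came with a genomic interval, from 74 to 385 bases long over the 59 members, with a median of 182 bases. The intervals of the other 17 had a median of 173 bases. The genome build is not given in the sources used here, so positions are named on sequences numbered in the order of their identifiers, which is not an annotation. The members lay on 13 of these numbered sequences and, for 3 of them, on other sequences. Sequences 3 and 5 held the most, 8 members each. Of the 59 intervals 58 were on the plus strand, novel_mir22 being the exception, whereas 3 of the 17 other predicted miRNAs were on the minus strand.

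Levels are given as CPM, the reads of a member scaled to a fixed total of miRNA reads in a library after TMM scaling (trimmed mean of M-values), and summarised as the mean ± SD of n = 3 libraries. A library held 15652847 to 20822592 reads in the table and 1780320 to 4045539 miRNA reads. The members took 4.68% of all miRNA reads, and the 17 other predicted miRNAs took 36.1%. By library the members' share was lowest in LC replicate 1, at 2.27%, and highest in CL replicate 1, at 7.44%. Pooled by group it was 4.7% in LL, 3.38% in LC, 6.1% in CL, 4.93% in CC and 4.56% in Control. A share of one class falls whenever another class rises, so these shares do not give amounts per leaf. The libraries differed far beyond counting noise, and none was a copy of another. Pairs were compared over miRNA counts by chi-square per degree of freedom, which is larger for less alike libraries. LL replicate 1 gave 841 and 775.7 with Control replicates 1 and 2, but 1767 and 1593 with LL replicates 2 and 3. LC replicate 1 gave 3688 and 3661 with Control replicates 1 and 3, but 5000 and 4299 with LC replicates 2 and 3. The SD and the tests cover the spread between libraries, and no interval for counting error alone is given.

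A predicted miRNA was listed with 0 or with at least 10 reads in a library, whereas known miRNAs were listed down to 1 read. A 0 can therefore stand for up to 9 reads. Of the 59 members 50 were listed in all 15 libraries, and the other 9 had 45 zeros in all. Members novel_mir22 (24 reads in CC replicate 1) and novel_mir60 (11 reads in CL replicate 3) were at 0 in the other 14 libraries each. These 2 did not pass edgeR's filter on low counts, which the other 57 passed. The filter keeps a miRNA that is high in a single group.

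Among the 57 tested members the median of the mean levels was 412.7 CPM, against 245.1 CPM for the other predicted miRNAs and 159.3 CPM for the known miRNAs tested. A mean of at least 1000 CPM was reached by 17 members, 28 lay between 100 and 1000 CPM, and 14 of the 59 lay under 100 CPM. The 10 most abundant held 59.1% of the members' reads. In falling order they were novel_mir28, novel_mir43, novel_mir50, novel_mir58, novel_mir46, novel_mir19, novel_mir11, novel_mir41, novel_mir39 and novel_mir27. The most abundant, novel_mir28, took 0.541% of all miRNA reads. It had 6390.4, 8422 and 7476 CPM in the LL libraries, 3588, 1858 and 2546 CPM in LC and 3239, 7589 and 8214 CPM in CL. In CC it had 5456, 3286 and 6295 CPM, and in Control 1684, 8103 and 6714 CPM. All 3 LC libraries and all 3 CC libraries lay below all 3 LL libraries, while the other pairs of groups overlapped.

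**Figure D1:**
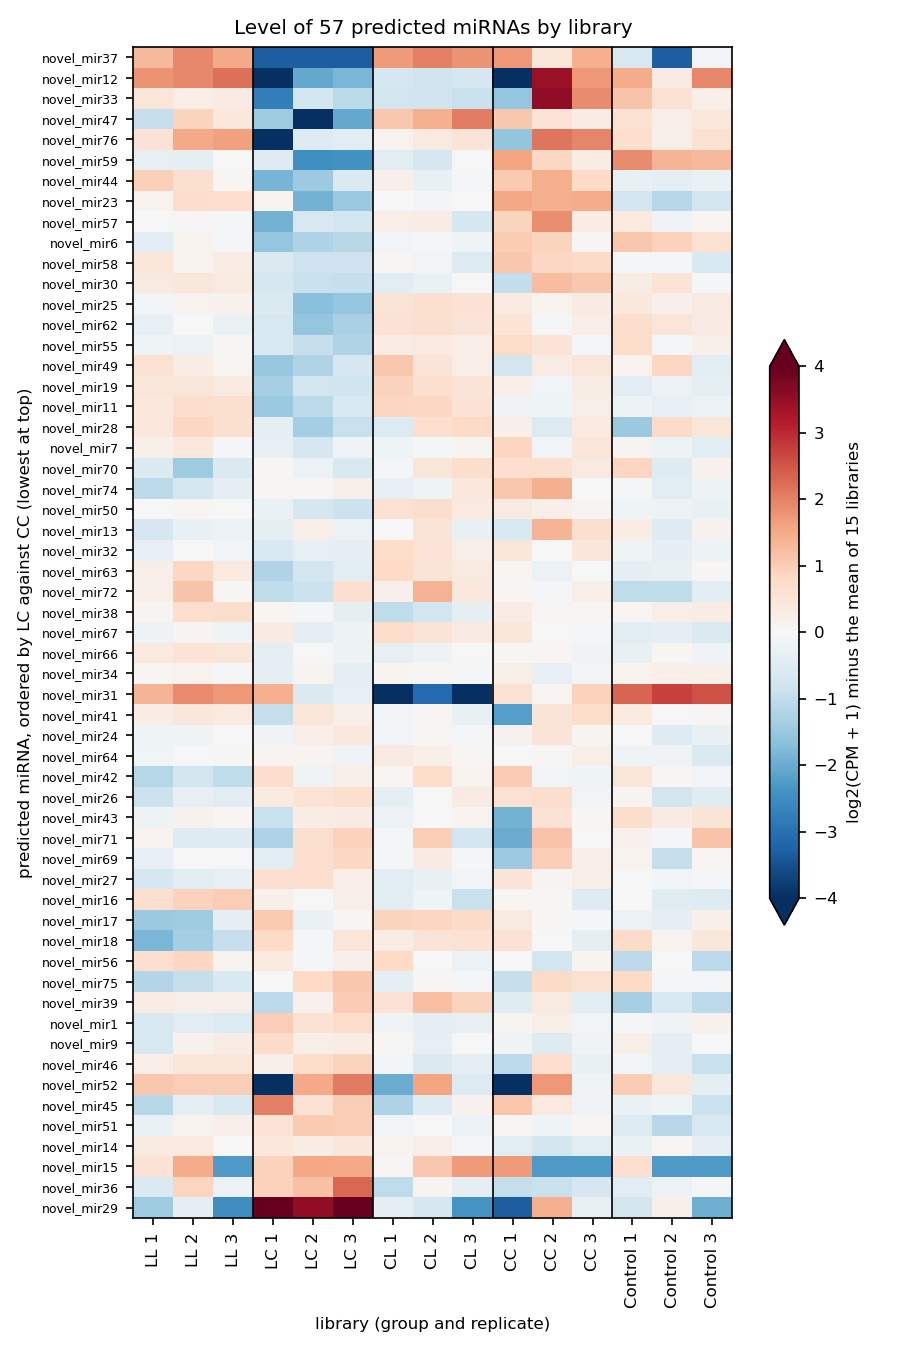
Level of each of the 57 tested members (rows, ordered by the change in LC against CC, lowest at the top) in each of the 15 libraries (columns), as log2(CPM + 1) minus the member's mean over all libraries. Blue is below and red above that mean. The LC columns are blue over much of the upper part and red at the bottom, novel_mir31 stands out as low in CL, and several rows are dark blue in CC replicate 1 or LC replicate 1 alone.

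The group means ranged over 2.87-fold for the median member, from the lowest group to the highest. The range was under 1.5-fold for 4 members and over 4-fold for 15. The lowest group was LC for 23 of 57 members (40.4%), LL for 13, Control for 11, CL for 6 and CC for 4. The highest group was CL for 17 members, LC for 14, CC for 14, LL for 6 and Control for 6. Among the 105 known miRNAs tested, LC was the lowest group for 11 (10.5%) and the highest for 41 (39%). Among the 17 other predicted miRNAs it was the lowest for 12 (70.6%) and the highest for 1 (5.88%). A low level in LC was thus not particular to the members. The heatmap of levels by library shows the members' side of this order.

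Among the libraries, CC replicate 1 and LC replicate 1 stood apart. A member was counted as apart in a library when it differed more than 2-fold from both other libraries of the group. That held for 15 members in CC replicate 1, of which 13 were low, and for 15 in LC replicate 1, of which 10 were low. In each other library it held for 1 to 5 members. The same 8 members were low in both libraries, namely novel_mir12, novel_mir33, novel_mir41, novel_mir43, novel_mir52, novel_mir69, novel_mir71 and novel_mir76. Of the 105 known miRNAs 10 (9.52%) were low in CC replicate 1 and 17 (16.2%) in LC replicate 1, but 1 in both. For the 57 members the shares were 22.8% and 17.5%. The most abundant of the 8, novel_mir43, had 2429, 5594 and 5648 CPM in LC and 1211, 6776 and 4819 CPM in CC. In LL it had 3971, 5169 and 4744 CPM, in CL 3895, 4562 and 5052 CPM, and in Control 7316, 5719 and 6496 CPM. What set these libraries apart was not tested, and the results that rest on them are given with and without them.

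Differences were tested in edgeR's quasi-likelihood fit over all 179 miRNAs that passed the filter. A member is said to be called where p, adjusted over those 179 by the Benjamini-Hochberg method, was under 0.05. Changes are log2 fold changes with a standard error (SE) derived from the test statistic. Over the 9 comparisons, 45 of the 57 tested members were called at least once, 20 at least 4 times, and novel_mir6 and novel_mir11 most often, in 7 each. No called change of a member reversed its sign under any alternative setting, over 150 calls, but many calls were lost under some setting. In the fit of only the groups compared 52 were lost. For 29 members a call was kept under every alternative, each library left out in turn included. No like counts over all 179 miRNAs are given, so neither these counts nor the number never called sets the members apart. In single comparisons 16.2% to 50.8% of all miRNAs were called.

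**Figure D2:**
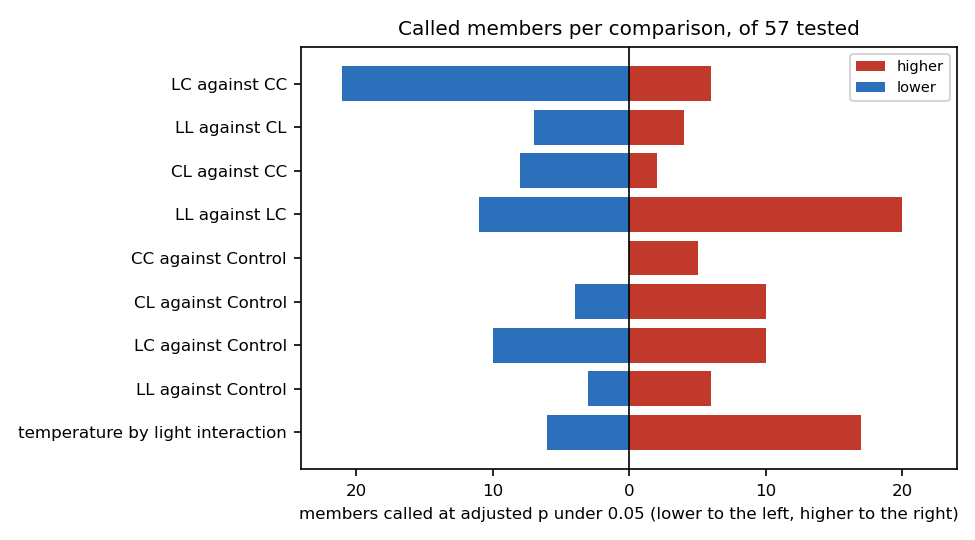
Number of the 57 tested members called at an adjusted p under 0.05 in each comparison, lower to the left of 0 and higher to the right. The long bars are the 21 members lower in LC against CC and the 20 higher in LL against LC. CC against Control has 5 higher and 0 lower.

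Under full light, cool leaves (LC) differed from warm leaves (CC) in 27 of 57 members (47.4%), against 42.5% of all 179 miRNAs. Of the 27, 21 were lower in LC (24% of all miRNAs were lower) and 6 were higher (18.4% of all). The median log2 change was -0.20 over the members and 0.16 over all miRNAs. Without overlap between the 3 LC and the 3 CC libraries were 24 members, against 47.5% of all miRNAs. In the fit of these 2 groups alone the count was 12. Scaling by miRNA library size alone gave 2 higher and 18 lower. Without CC replicate 2 the split was 6 higher and 12 lower.

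One member, novel_mir37, was unlisted in LC and near the floor in Control. It was at 0 in all 3 LC libraries, whereas CC had 31.5, 12.8 and 25.2 CPM (99, 31 and 63 reads). In the other groups it had 22.7, 36.3 and 27.0 CPM in LL, 30.8, 38.3 and 32.9 CPM in CL and 5.32, 0 and 8.02 CPM in Control. It was the one member listed in every library of a group and at 0 in every library of another. With each zero taken as 9 reads per library, novel_mir37 was at least 6.26-fold lower in LC than in CC (adjusted p = 0.00112 with the zeros as listed). The same zeros put LL at least 7.75-fold above LC (adjusted p = 0.000944). Against Control, with zeros taken as 9 reads, LC was 1.51-fold lower, and LL, CL and CC were 5.14-, 6.09- and 4.15-fold higher. Of these 3 rises the one in CL was called, a call kept under 8 of 15 alternatives. The zeros in LC therefore do not show a fall since day 0.

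Lower in LC at higher levels was novel_mir58, with 1668, 1413 and 1423 CPM in LC against 5279, 4477 and 4266 CPM in CC. The LC libraries were also below the lowest LL, CL and Control values, except that Control replicate 3 had 1655 CPM. The change was -1.64 ± 0.21 on the log2 scale, or 3.11-fold lower (adjusted p = 7.05e-05). Member novel_mir6 had 97.9, 122 and 134 CPM in LC against 577, 534 and 296 CPM in CC. It was 3.97-fold lower (-1.99 ± 0.26, adjusted p = 9.41e-05). All 3 of its LC libraries were below every library of the other 4 groups, whose lowest was 215 CPM in LL.

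Member novel_mir44 followed the same order. It had 128, 167 and 311 CPM in LC and 962, 1272 and 791 CPM in CC, a change of -2.32 ± 0.34 (4.99-fold lower, adjusted p = 0.000234). Its LC libraries also lay below its LL libraries (906, 723 and 493 CPM), CL libraries (529, 379 and 438 CPM) and Control libraries (379, 356 and 387 CPM). Member novel_mir23 had 608, 146 and 197 CPM in LC against 1620.3, 1466 and 1547 CPM in CC. LC replicate 1 was the high one of the 3. The change was -2.28 ± 0.44 (adjusted p = 0.00126) with it and -3.05 (adjusted p = 1.49e-05) without it. All these calls were kept under every alternative, as were those of novel_mir19, novel_mir25, novel_mir57 and novel_mir62, also lower in LC.

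For novel_mir57 the size rested on CC replicate 2. It had 76.7, 182 and 169 CPM in LC and 530.3, 1032 and 351 CPM in CC, so the groups did not overlap. The change was -2.16 ± 0.44 (adjusted p = 0.00177), and -1.43 (adjusted p = 0.00864) without CC replicate 2. Member novel_mir59, with 679, 174 and 179 CPM in LC and 2888, 1708 and 1180.4 CPM in CC, was lower by -2.49 ± 0.53 (adjusted p = 0.00225). Its change was -3.35 (adjusted p = 0.000298) without LC replicate 1, and the call was lost in the fit of the 2 groups alone (adjusted p = 0.0521).

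Of the 27 calls, those of novel_mir12, novel_mir30, novel_mir33 and novel_mir49 had groups that overlapped. All were lower in LC, and all rested on CC replicate 2. Member novel_mir12 had 0, 4.15 and 5.01 CPM in LC and 0, 233 and 69.5 CPM in CC. Its adjusted p was 0.0253, 0.00163 without CC replicate 1, 0.106 without CC replicate 2, and 0.0669, 0.0594 and 0.052 without LC replicate 1, 2 or 3. Member novel_mir33 had 4.82, 23.0 and 17.8 CPM in LC and 12.4, 459 and 145 CPM in CC, with a change of -3.75 ± 0.96 (adjusted p = 0.00716). That became -4.36 (adjusted p = 0.000296) without CC replicate 1, -3.12 (adjusted p = 0.0309) without LC replicate 1 and -2.17 (adjusted p = 0.0506) without CC replicate 2. The call of novel_mir30 was lost without CC replicate 2 (adjusted p = 0.138), and that of novel_mir49 when LC replicate 1, LC replicate 2, CC replicate 2 or CC replicate 3 was left out (adjusted p from 0.0788 to 0.116).

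Higher in LC than in CC were novel_mir1, novel_mir9, novel_mir14, novel_mir29, novel_mir36 and novel_mir51. The largest change was that of novel_mir29, with 2681, 1230.2 and 1944 CPM in LC against 9.56, 279 and 84.3 CPM in CC. The other groups were low too, with 37.9, 78.4 and 17.7 CPM in LL, 79.0, 64.3 and 18.8 CPM in CL and 61.8, 121 and 26.2 CPM in Control. Every LC library was therefore above every library of the other 4 groups.

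The change of novel_mir29 in LC against CC was 3.97 ± 1.08 (adjusted p = 0.0101). It moved to 5.72 (adjusted p = 0.00374) without CC replicate 2 and to 3.34 (adjusted p = 0.0133) without CC replicate 1. Without both CC replicate 1 and LC replicate 1 it was 3.06 (adjusted p = 0.032). The call was lost in the fit of the 2 groups alone, at an adjusted p of 0.0563. The interval of novel_mir29, 160 bases at 21334907 to 21335066 on sequence 5, lay 47061 bases after that of novel_mir28. The 2 did not share this pattern, since novel_mir28 had its LC libraries below its LL libraries.

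Member novel_mir36 had 541, 648 and 1425 CPM in LC against 148, 156 and 181 CPM in CC. The LC mean was 872 ± 482 CPM, with a wide spread, and the CC mean was 162 ± 17.1 CPM (SD, n = 3 each). The change was 2.43 ± 0.46, or 5.39-fold (adjusted p = 0.00126), and this call was kept under every alternative. LL had 193, 523 and 246 CPM, CL had 141, 311 and 226 CPM and Control had 215, 245 and 277 CPM, all below the lowest LC library.

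**Figure D3:**
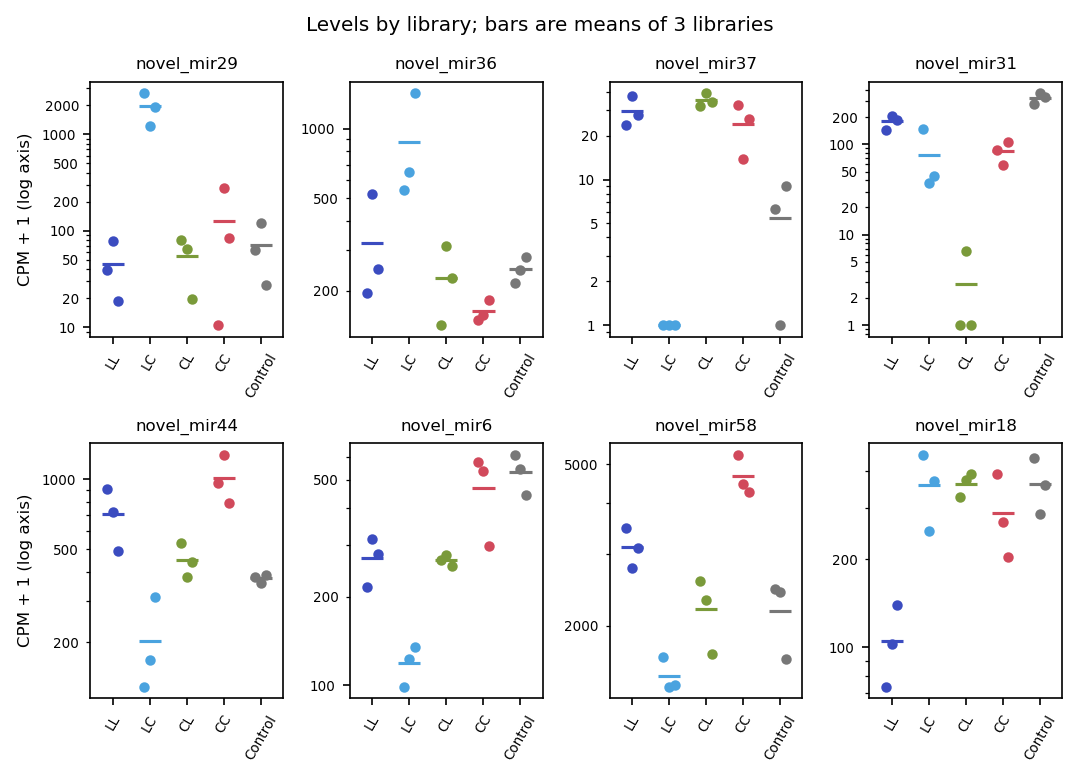
CPM + 1 on a log axis in each library for 8 members, by group from left to right as LL, LC, CL, CC and Control. Points are libraries and bars are means of 3. LC lies highest for novel_mir29 and novel_mir36 and lowest for novel_mir37, novel_mir44, novel_mir6 and novel_mir58, CL lies lowest for novel_mir31, and LL lowest for novel_mir18.

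Under 40% light, cool leaves (LL) differed from warm leaves (CL) in 11 of 57 members (19.3%), against 26.8% of all miRNAs. Of these, 4 were higher in LL (17.3% of all miRNAs) and 7 were lower (9.5% of all). The median log2 change was -0.17 over the members and 0.23 over all miRNAs. Without overlap were 29 members, against 49.7% of all miRNAs. The count was 6 without CL replicate 1 or LL replicate 3 and 5 without CL replicate 2. Other settings raised it: 20 members were called in the fit of the 2 groups alone (6 higher, 14 lower), 20 with zeros set to 9 reads (3 higher, 17 lower) and 19 with the stricter filter. Scaling by miRNA library size alone gave 2 higher and 12 lower.

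The calls of novel_mir17, novel_mir18 and novel_mir31 were kept under every alternative. Member novel_mir31 had 144, 206 and 186 CPM in LL, against 0, 5.56 and 0 CPM in CL, where the middle value stood for 16 reads. LC had 148, 36.6 and 43.7 CPM, CC had 84.7, 58.6 and 105 CPM, and Control had 278, 368 and 329 CPM. Every CL library was below every library of the other groups. With the 2 zeros taken as 9 reads LL was 45.2-fold above CL, and the test as listed gave an adjusted p of 0.00275 (0.000261 without CL replicate 2, the library with reads).

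Member novel_mir18 had 72.4, 101 and 138 CPM in LL against 324, 371 and 389.9 CPM in CL. Its mean of 104 ± 33.1 CPM in LL was 3.48-fold below the 362 ± 33.8 CPM in CL (-1.80 ± 0.33, adjusted p = 0.00211). The LL libraries were also below all LC libraries (455, 248 and 368 CPM), CC libraries (389, 268 and 202 CPM) and Control libraries (442, 284 and 357 CPM). Member novel_mir17 had 14.0, 14.6 and 30.6 CPM in LL against 76.2, 74.4 and 69.2 CPM in CL (-1.89 ± 0.40, adjusted p = 0.00472). Its LL libraries were below all those of the other groups, the next being 31.6 CPM in Control.

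Member novel_mir16 went the other way, with 643, 755 and 794 CPM in LL against 297, 353 and 215 CPM in CL. It was 2.53-fold higher in LL (1.34 ± 0.24, adjusted p = 0.00211), and the call was lost with miRNA library size alone (adjusted p = 0.0685). Member novel_mir38 had 136, 202 and 205 CPM in LL against 62.6, 75.1 and 95.5 CPM in CL (1.22 ± 0.23, adjusted p = 0.00211). That call was lost without CL replicate 2 (adjusted p = 0.0892). Member novel_mir42 was lower in LL, with 38.3, 51.4 and 42.5 CPM against 91.2, 145 and 95.5 CPM in CL (-1.33 ± 0.37, adjusted p = 0.0213). It was lost without CL replicate 1, CL replicate 2 or LL replicate 3, with adjusted p of 0.0505, 0.0677 and 0.0733.

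Members called at both light levels were few. Lower in the cool at both were novel_mir32, novel_mir50 and novel_mir62, and 0 members were higher at both or called in opposite directions. Member novel_mir62 had 641, 814 and 671 CPM in LL and 1222, 1274 and 1166 CPM in CL (-0.78 ± 0.24, adjusted p = 0.0338). In LC it had 525, 278 and 332 CPM and in CC 1191, 787 and 969 CPM (-1.38 ± 0.24, adjusted p = 0.000829). Its LL and CL libraries did not overlap, nor did its LC and CC libraries. The call of novel_mir62 at 40% light was lost without any 1 of CL replicate 1, 2 or 3 or LL replicate 3, with adjusted p of 0.155, 0.0752, 0.0706 and 0.137. For novel_mir50 the call was kept under 12 of 15 alternatives at 40% light and 14 of 16 at full light. For novel_mir32 it was kept under 14 of 15 at 40% light and 12 of 16 at full light.

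Whether the temperature difference itself changed with light was tested as an interaction, the change of LL against CL minus that of LC against CC. It was called for 23 of 57 members (40.4%), against 34.6% of all miRNAs. Of the 23, 17 were positive (25.1% of all miRNAs) and 6 negative (9.5% of all). The median was 0.19 over the members and 0.17 over all miRNAs. The split was 12 positive and 8 negative with all table reads as library size, and 12 and 7 with the size factors of relative log expression (RLE). The count was 15 without LL replicate 3 (10 positive, 5 negative). The split was 8 and 9 without CC replicate 2, 8 and 8 without CL replicate 2, 11 and 10 without CC replicate 1, 10 and 7 without LL replicate 1, and 11 and 8 without LL replicate 2. Positive calls thus no longer outnumbered negative ones without CC replicate 2 or CL replicate 2. They did under every other setting, with 16 positive and 3 negative without LC replicate 3 and 15 and 5 without CC replicate 3. For novel_mir1, novel_mir6, novel_mir12, novel_mir17, novel_mir18, novel_mir31, novel_mir33, novel_mir37, novel_mir44 and novel_mir58 the call was kept under every alternative.

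**Figure D4:**
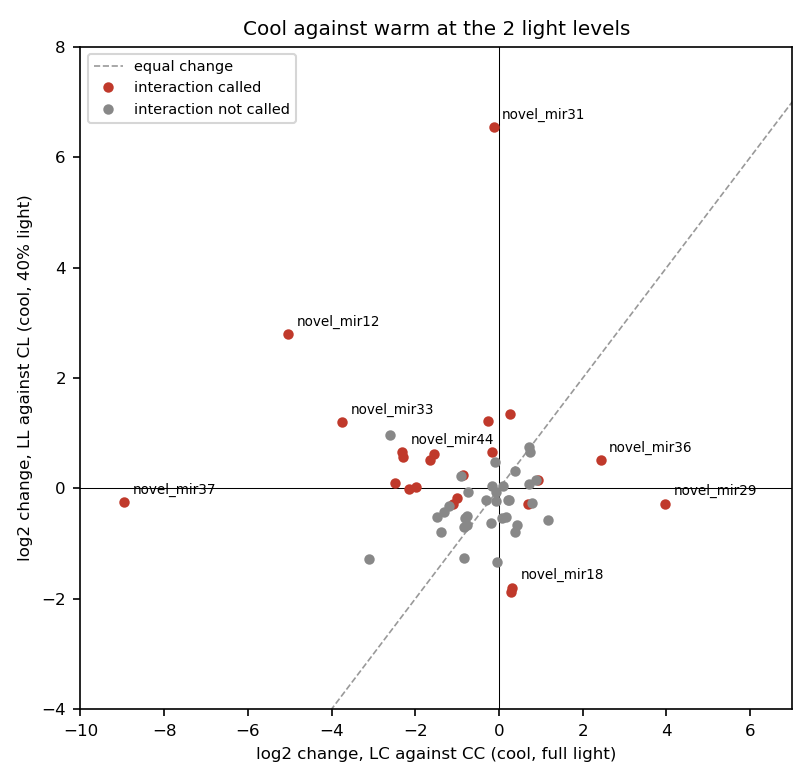
Log2 change of each tested member in LC against CC (horizontal) and in LL against CL (vertical), with members called for the interaction in red and the dashed line marking equal change. The members called for the interaction lie off the line, novel_mir37 (-8.95 in LC against CC) farthest to the left, novel_mir29 farthest to the right and novel_mir31 highest. The value of novel_mir37 is fitted to listed zeros and is no size.

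Most members with a positive interaction were those lower in LC. By its definition a low LC level raises the interaction and a low LL level lowers it, so this overlap is no separate result. Member novel_mir44 had an interaction of 2.98 ± 0.47 (adjusted p = 0.000768), moving to 2.37 (adjusted p = 0.00721) without CC replicate 2 and 2.38 (adjusted p = 0.00951) without CL replicate 2. Member novel_mir58 had 2.15 ± 0.29 (adjusted p = 0.000262), and novel_mir6 had 2.01 ± 0.36 (adjusted p = 0.00124). In these 3 members the cool leaves were lower at full light, while at 40% light no difference was called.

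The negative interactions of novel_mir18 (-2.12 ± 0.45, adjusted p = 0.004) and novel_mir17 (-2.17 ± 0.55, adjusted p = 0.0109) belonged to members low in LL. Without CL replicate 2 these were -2.74 (adjusted p = 0.00951) for novel_mir18 and -2.82 (adjusted p = 0.0144) for novel_mir17, and without LL replicate 3 novel_mir17 had -2.93 (adjusted p = 0.00723). That of novel_mir31 was positive (adjusted p = 0.00566), with CL the one group near 0. For novel_mir29 the interaction was -4.25 ± 1.41 (adjusted p = 0.0344), but -6.17 (adjusted p = 0.0105) without CC replicate 2 and -5.07 (adjusted p = 0.0322) without LL replicate 2. It was lost without CC replicate 3, CL replicate 1, LC replicate 3, LL replicate 1 or LL replicate 3, with adjusted p from 0.0531 to 0.0749.

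In the warm, 40% light (CL) differed from full light (CC) in 10 of 57 members (17.5%), against 17.3% of all miRNAs. Lower in CL were 8 members (12.8% of all miRNAs) and higher 2 (4.47% of all), with a median of -0.14 over the members and -0.17 over all. Without overlap were 20 members, against 36.9% of all miRNAs. No call was kept under every alternative, and the direction of the split depended on the scaling. It was 5 higher and 3 lower with RLE (relative-log-expression) size factors, 2 and 4 with all reads as library size, and 0 and 2 with miRNA library size alone. The count was 4 without CC replicate 2, 3 without CL replicate 1, 5 without CL replicate 2 or 3, and 19 (10 higher, 9 lower) without both CC replicate 1 and LC replicate 1.

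The lower members included novel_mir31, whose CL and CC values stand above, 20.96-fold lower in CL with the zeros taken as 9 reads (adjusted p = 0.0123). It was lost in the fit of the 2 groups alone (adjusted p = 0.0824). Member novel_mir58 had 2575, 2305 and 1704 CPM in CL against 5279, 4477 and 4266 CPM in CC (-1.09 ± 0.21, adjusted p = 0.00761). It was lost without CC replicate 2 (adjusted p = 0.0952), without CL replicate 2 (adjusted p = 0.12) and with miRNA library size alone (adjusted p = 0.212). Higher in CL were novel_mir11, at 3511, 3454 and 2927 CPM against 1784, 1743 and 2293 CPM in CC (0.77 ± 0.21, adjusted p = 0.0286), and novel_mir14 (0.65 ± 0.18, adjusted p = 0.0306). The call of novel_mir11 was lost with miRNA library size alone (adjusted p = 0.0567). That of novel_mir14 was lost without CC replicate 2 (adjusted p = 0.0572), without CL replicate 1 (adjusted p = 0.0588) and with miRNA library size alone (adjusted p = 0.056).

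In the cool, 40% light (LL) differed from full light (LC) in 31 of 57 members (54.4%), against 50.8% of all miRNAs, the largest count of the 9 comparisons. Higher in LL were 20 members (31.8% of all miRNAs) and lower 11 (19% of all). The median change was 0.33 over the members and -0.03 over all miRNAs. Without overlap were 36 members, against 54.7% of all miRNAs, and 15 calls were kept under every alternative. With all table reads as library size the split was 14 higher and 13 lower. It was 10 and 11 in the fit of the 2 groups alone, 13 and 11 without LC replicate 2, and 11 and 11 without LL replicate 3, so the larger number of higher calls was not kept under every setting.

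Higher in LL was novel_mir11, with 2597, 3157 and 3048 CPM in LL against 702, 942 and 1272 CPM in LC (3.02-fold, 1.59 ± 0.21, adjusted p = 9.04e-05). Member novel_mir19 had 2813, 2833 and 2602 CPM in LL against 803, 1206 and 1174 CPM in LC (1.37 ± 0.20, adjusted p = 0.000144). In both, LC lay below every other group. Member novel_mir44 was higher in LL by 1.81 ± 0.34 (adjusted p = 0.00108), novel_mir63 by 1.28 ± 0.24 (adjusted p = 0.00119) and novel_mir6 by 1.19 ± 0.26 (adjusted p = 0.00263).

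Lower in LL was novel_mir29, 43.7-fold below LC (-5.45 ± 1.16, adjusted p = 0.0023), and -6.07 (adjusted p = 0.00673) without LL replicate 2. Member novel_mir1 had 82.6, 94.4 and 89.0 CPM in LL against 259, 197 and 217 CPM in LC (-1.34 ± 0.18, adjusted p = 9.04e-05), with CL (118, 101 and 103 CPM) and CC (140.1, 152 and 121 CPM) between them. Member novel_mir45 had 16.7, 28.8 and 24.4 CPM in LL against 154, 56.2 and 75.2 CPM in LC. Its change was -2.03 ± 0.50 (adjusted p = 0.00555), and -1.35 (adjusted p = 0.0162) without both CC replicate 1 and LC replicate 1. Also lower in LL under every alternative were novel_mir18, novel_mir26, novel_mir27, novel_mir42 and novel_mir75.

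Members called for light at both temperatures were compared by sign. Lower in CL than in CC but higher in LL than in LC were novel_mir6, novel_mir23, novel_mir38, novel_mir44 and novel_mir58. The warm call was kept under 1 of 16 alternatives for novel_mir6 (log2 changes from -1.04 to -0.41), 3 for novel_mir38 and novel_mir44, 7 for novel_mir23 and 13 for novel_mir58. The cool call was kept under all 16 for novel_mir6 and novel_mir44, 15 for novel_mir58, 12 for novel_mir23 and 3 for novel_mir38, so most of these sign changes rest on warm calls that few settings kept. Member novel_mir11 was higher under 40% light at both temperatures, and novel_mir27 was lower at both. Member novel_mir27 had 849, 1038 and 1091 CPM in LL and 2160.0, 2183 and 1640.2 CPM in LC (-1.01 ± 0.18, adjusted p = 0.000751). In CL it had 1030, 1132 and 1278 CPM and in CC 1962, 1499 and 1628 CPM. Its warm change of -0.57 ± 0.17 (adjusted p = 0.0441) was lost without any library of CC or CL, with adjusted p from 0.075 to 0.738.

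Against day 0 the 4 regimes were each compared with the same 3 Control libraries, so these comparisons are not independent, and their values stand side by side. LL was called in 9 members (16.2% of all miRNAs), LC in 20 (36.3% of all), CL in 14 (30.2% of all) and CC in 5 (19% of all). Of these, 6 were higher and 3 lower in LL (10.1% and 6.15% of all), 10 and 10 in LC (16.8% and 19.6% of all), and 10 and 4 in CL (11.7% and 18.4% of all). In CC 5 were higher and 0 lower (9.5% of all miRNAs each). At an unadjusted p under 0.05 in edgeR, 14 of 57 members were higher and 0 lower in CC. Over all miRNAs 55 of 179 reached that threshold in either direction, so its count does not set the members apart. DESeq2 called 5 members higher and 1 lower, and no like count over all miRNAs is given for it. The members' median changes were 0.12, -0.13, 0.08 and 0.36 in LL, LC, CL and CC, against 0.12, 0.01, -0.01 and 0.20 over all miRNAs. Without overlap with Control were 30, 32, 25 and 20 members in that order, against 46.4%, 49.2%, 45.8% and 39.7% of all miRNAs.

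The splits against Control shifted with the scaling. With all reads as library size they were 1 higher and 9 lower in LL, 7 and 13 in LC, and 5 and 4 in CL. With miRNA library size alone they were 2 and 3 in LL, 4 and 8 in LC, and 11 and 2 in CL. With RLE factors they were 4 and 5 in LL and 6 and 15 in LC. The LL count was 5 without Control replicate 1 or 2, and 3 without Control replicate 3, LL replicate 1 or LL replicate 2. The LC count was 13 without Control replicate 3. The even LC split was not kept when 1 library was left out: 4 members were higher without any 1 of Control replicate 1, 2 or 3 (12, 10 and 9 lower), 5 without LC replicate 1 (13 lower) and 6 without LC replicate 2 or 3 (10 and 11 lower). DESeq2 gave 8 higher and 19 lower in LC. The CL count was 6 without CL replicate 1, 7 without Control replicate 2, and 8 without CL replicate 2 or Control replicate 1. The CC count was 1 without CC replicate 2 and 3 without Control replicate 3, and 8 without both CC replicate 1 and LC replicate 1. It was 0 in edgeR without Control replicate 1 or 2, with 8 and 7 members at an unadjusted p under 0.05.

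Member novel_mir51 was called higher than Control in all 4 regimes. It had 437, 579.9 and 612 CPM in LL, 778, 1105 and 1052 CPM in LC, 495, 528 and 445 CPM in CL and 546, 472 and 559 CPM in CC, against 364, 247 and 339.8 CPM in Control. No regime library was as low as the highest Control library. The changes were 0.77 ± 0.21 in LL (adjusted p = 0.026), 1.62 ± 0.21 in LC (adjusted p = 8.65e-05), 0.63 ± 0.21 in CL (adjusted p = 0.0398) and 0.73 ± 0.21 in CC (adjusted p = 0.0269). The call was kept under every alternative in LC. It was kept under 5 of 15 alternatives in LL, 7 of 15 in CL and 4 of 16 in CC. In each of these 3 regimes it was lost with all table reads as library size, with miRNA library size alone, and with any 1 of several libraries left out. The highest adjusted p over the alternatives was 0.256 in LL and 0.539 in CC, both without Control replicate 2, and 0.197 in CL without CL replicate 1.

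Members novel_mir6 and novel_mir59 were called lower than Control in LL, LC and CL. Member novel_mir59 had 759, 728 and 949 CPM in LL, 679, 174 and 179 CPM in LC and 701, 605 and 981 CPM in CL, against 3556, 2483 and 2350.4 CPM in Control. Its change in LC was -3.02 ± 0.54 (adjusted p = 0.00103), or -4.11 (adjusted p = 0.000126) without LC replicate 1. Its change was -1.78 ± 0.51 in LL (adjusted p = 0.0364), a call lost without any 1 of the 6 libraries (adjusted p from 0.0578 to 0.149). In CL it was -1.88 ± 0.51 (adjusted p = 0.0155), lost without CL replicate 1 or 2 or Control replicate 1 or 2 (adjusted p from 0.054 to 0.134). Member novel_mir6 was 4.51-fold lower in LC than in Control (-2.17 ± 0.27, adjusted p = 6.25e-05), and its changes in LL and CL were -0.98 ± 0.26 (adjusted p = 0.0227) and -1.01 ± 0.26 (adjusted p = 0.011), both lost with miRNA library size alone (adjusted p = 0.06 and 0.202).

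The furthest from Control among the warm leaves was novel_mir31 in CL, 82.2-fold lower with the zeros taken as 9 reads (adjusted p = 0.00219). Member novel_mir39 had 1997, 3065 and 2456 CPM in CL against 529, 879 and 638 CPM in Control (3.67-fold higher, 1.88 ± 0.44, adjusted p = 0.00649). In CC, novel_mir23 was 5.17-fold higher than in Control, where it had 320.1, 249 and 327 CPM (2.37 ± 0.44, adjusted p = 0.00217). That call was lost without Control replicate 1 (adjusted p = 0.0507) or Control replicate 2 (adjusted p = 0.0755). In the cool, novel_mir29 was 28.0-fold higher in LC than in Control (4.81 ± 1.12, adjusted p = 0.00587), and 5.42 (adjusted p = 0.0162) without Control replicate 2. Member novel_mir37 was at 0 in LC and at 5.32, 0 and 8.02 CPM in Control. Its call (adjusted p = 0.00827) was lost with the zeros set to 9 reads (adjusted p = 0.194). In LL, novel_mir18 was lower than Control under every alternative (-1.80 ± 0.33, adjusted p = 0.00375).

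Members that neighbour each other in the genome did not share 1 pattern. Between 1717678 and 2213747 on the plus strand of sequence 3, a span of 496070 bases, lay novel_mir14, novel_mir15, novel_mir16, novel_mir17 and novel_mir18. Their intervals were 106, 118, 106, 106 and 119 bases long, with gaps of 170496, 72561, 163229 and 89229 bases. They differed widely in level. Member novel_mir14 had 1349, 1400.2 and 1056 CPM in LL, 1424, 1291 and 1455 CPM in LC and 1172, 1264 and 997 CPM in CL, against 779.7, 636 and 775 CPM in CC and 874, 1122 and 806 CPM in Control. It was thus lowest in CC, while novel_mir16 was highest in LL, and novel_mir17 and novel_mir18 were lowest in LL.

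Of these 5, novel_mir17 and novel_mir18 had like changes in LL against CL and in LL against LC (-1.44 ± 0.40, adjusted p = 0.01, for novel_mir17, and -1.78 ± 0.33, adjusted p = 0.00101, for novel_mir18). The call of novel_mir17 in LL against LC was lost in the fit of the 2 groups alone (adjusted p = 0.0759) and without both CC replicate 1 and LC replicate 1 (adjusted p = 0.0884). The least abundant of the 5, novel_mir15, had 6.06, 12.4 and 0 CPM in LL, 8.03, 12.8 and 12.8 CPM in LC and 3.93, 9.04 and 14.4 CPM in CL. It had 14.7, 0 and 0 CPM in CC and 6.55, 0 and 0 CPM in Control. It was called in no comparison, and 5 of its 15 values were listed zeros, each of which can hide up to 9 reads.

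**Figure D5:**
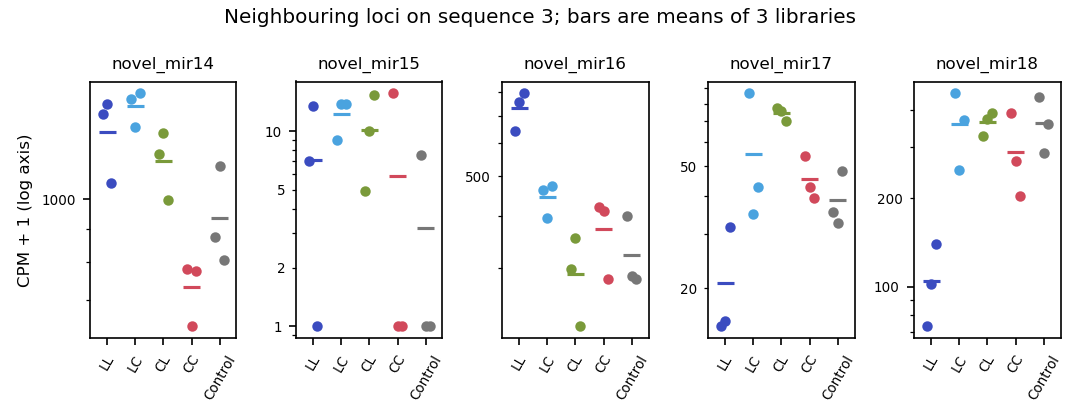
CPM + 1 on a log axis in each library for 5 members whose intervals neighbour each other on sequence 3, by group from left to right as LL, LC, CL, CC and Control, with bars at the means of 3 libraries. LL is the highest group for novel_mir16 and the lowest for novel_mir17 and novel_mir18, and CC is the lowest for novel_mir14.

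The closest pair of members lay on sequence 13, where novel_mir70 (12395938 to 12396092) followed novel_mir69 (12388517 to 12388782) after 7155 bases. Member novel_mir69 had 240.2, 298 and 299 CPM in LL, 226, 489 and 540.2 CPM in LC, 297, 379 and 293 CPM in CL, 109, 607 and 363 CPM in CC and 336, 156 and 318 CPM in Control. It was low in CC replicate 1 and LC replicate 1 and was called nowhere. Member novel_mir70 had 23.1, 12.4 and 22.9 CPM in LL and 34.0, 49.0 and 57.5 CPM in CL. It was called lower in LL than in CL (-1.26 ± 0.38, adjusted p = 0.0325), which did not hold when LL replicate 3 or any library of CL was left out (adjusted p from 0.0767 to 0.103). Member novel_mir71, 96951 bases further on, was again low in both libraries that stood apart.

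Called in no comparison were 12 members, namely novel_mir13, novel_mir15, novel_mir24, novel_mir34, novel_mir41, novel_mir43, novel_mir52, novel_mir56, novel_mir64, novel_mir69, novel_mir71 and novel_mir76. They were of 2 kinds. Some varied little: novel_mir64 had 129, 139 and 143 CPM in LL, 150.1, 149.7 and 125 CPM in LC, 178, 159 and 144 CPM in CL, 136, 144 and 163 CPM in CC and 123, 125 and 93.2 CPM in Control, and the group means of novel_mir34 ranged over 1.32-fold. The others varied within groups, and 6 of the 12 were among the 8 members low in both CC replicate 1 and LC replicate 1.

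Member novel_mir76 had 344, 660.5 and 731 CPM in LL, 0, 163 and 168 CPM in LC, 256, 297 and 329.7 CPM in CL, 77.7, 1031 and 909 CPM in CC and 368, 274 and 357 CPM in Control. Without the first libraries of CC and LC it was called in every comparison that holds either group. It was then lower in LC than in CC (-2.60, adjusted p = 8.31e-05), higher in LL than in LC (1.94, adjusted p = 0.000286) and lower in CL than in CC (-1.55, adjusted p = 0.00265). It was also lower in LC than in Control (-1.27, adjusted p = 0.00426) and higher in CC than in Control (1.33, adjusted p = 0.00377), with an interaction of 3.49 (adjusted p = 9.81e-05). Leaving out these libraries was chosen after their values were seen, and novel_mir76 was among the members whose low values set them apart. Its calls without them therefore follow in part from that choice and are no separate support for a difference. Without these libraries the members called numbered 25 in LC against CC, 34 in LL against LC, 26 for the interaction and 26 in LC against Control.

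Within groups, the members varied less than the known miRNAs. The median coefficient of variation over the 3 libraries was 0.147 in LL, 0.279 in LC, 0.151 in CL, 0.283 in CC and 0.194 in Control for the members, against 0.286, 0.482, 0.292, 0.331 and 0.341 for the known miRNAs. For the 17 other predicted miRNAs it was 0.166, 0.327, 0.151, 0.184 and 0.124 in the same order, so a low spread was not particular to the members. The members were also more abundant at the median than the known miRNAs, and the part of abundance in this was not tested. The share of members called stood close to that of all miRNAs in CL against CC and below it in CL against Control (14 of 57, 24.6%) and CC against Control (5 of 57, 8.77%). Among the known miRNAs 35 of 105 were called in LC against CC, 24 higher and 11 lower, whereas among the members 6 were higher and 21 lower. Among the 17 other predicted miRNAs 14 (82.4%) were called, 3 higher and 11 lower, so the lean to lower calls was not particular to the members. The differences between these classes were not tested.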

How the data were processed

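Small RNA was measured in 15 libraries, and 1 table of all libraries was used. Its counts were deposited by the authors as raw reads per small RNA, and the TPM values beside them, scaled to the library total per the file headers and the values, were not tested. The aligner, the prediction program, the genome build and how reads matching several places were counted are each not given in the sources used here. Counts of the 243 miRNAs were filtered with edgeR's filterByExpr at its defaults (179 kept), TMM-scaled and fitted by quasi-likelihood in edgeR 4.0.16 (R 4.3.3) with all 15 libraries and a mean for each group. The biological coefficient of variation was 0.679. Comparisons were temperature at each light level, light at each temperature, their interaction and each regime against Control, 9 in all, with Benjamini-Hochberg adjustment over the 179 miRNAs of each. The SE is the change divided by the square root of the F statistic. The script was tested on simulated data.

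The members and lists were chosen with earlier results of these data known. Named were the 10 most abundant members, up to 10 called rises and 10 falls per comparison (no overlap of the groups, and 10 CPM or more as the mean of either), the 10 smallest interaction p, members at 0 throughout a group, and the 2 untested. From these the text gives a part in full, mostly the calls that few settings changed. It adds neighbouring, uncalled or overlapping members chosen after their values were seen. Alternatives were relative-log-expression size factors, all reads or miRNA reads alone as library size, no and stricter filters (10 CPM in 3 libraries), DESeq2 1.42.0, a replicate block, a fit of only the groups compared, zeros set to 9 reads and each library left out. Figures were drawn with matplotlib 3.10.9 in Python 3.11.15.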

Additional observations from a re-analysis of the deposited data

Results flagged for a closer look

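The temperature difference was larger or of another sign at one light level than at the other in 23 members, by edgeR's test of the interaction at an adjusted p under 0.05. The values are log2 changes, LL against CL minus LC against CC. Negative were novel_mir29 (-4.25), novel_mir17 (-2.17), novel_mir18 (-2.12), novel_mir36 (-1.92), novel_mir1 (-0.98) and novel_mir14 (-0.78). Positive and under 1.5 were novel_mir19 (0.82), novel_mir11 (0.83), novel_mir66 (0.83), novel_mir16 (1.08), novel_mir7 (1.09) and novel_mir38 (1.47). Positive and over 2 were novel_mir6 (2.01), novel_mir57 (2.14), novel_mir58 (2.15), novel_mir30 (2.19), novel_mir59 (2.58), novel_mir23 (2.85) and novel_mir44 (2.98). The values of novel_mir33 (4.95), novel_mir31 (6.68), novel_mir12 (7.83) and novel_mir37 (8.71) rest on few reads in LC or CL, and listed zeros enter all but the first of these 4. Of 22 alternatives, the call was kept under 0 for novel_mir7, 3 for novel_mir16, 4 for novel_mir11 and novel_mir19, and 6 for novel_mir66. The other 18 kept it under at least 16. No cause was tested.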

How the results depend on the processing

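No called change of a member reversed its direction under any alternative, each library left out in turn included. Of 1818 values of named members 1466 kept their call and 352 lost it. Counts of called members that moved by more than 1.5 times were, for LC against CC, 12 in the fit of only the groups compared, as against 27. For LL against CL they were 20 with zeros set to 9 reads, 20 with only the groups compared and 19 with the stricter filter, as against 11. For CL against CC, as against 10, they were 6 with all reads as library size, 2 with miRNA library size alone, 5 without a filter, 4 with only the groups compared and 19 without CC replicate 1 and LC replicate 1. For CC against Control, as against 5, they were 3 with all reads as library size, 2 with miRNA library size alone, 3 without a filter, 3 with relative-log-expression size factors and 8 without those 2 libraries. For CL against Control it was 9 with all reads, as against 14, and for LC against Control 12 with miRNA library size alone, as against 20. For LL against Control, as against 9, they were 19 with DESeq2, 5 with miRNA library size alone and 15 with only the groups compared. Leaving out 1 library gave 18 to 27 calls in LC against CC, 5 to 11 in LL against CL, 3 to 11 in CL against CC, 22 to 27 in LL against LC and 15 to 21 for the interaction. Against Control it gave 3 to 6 calls in LL, 13 to 18 in LC, 6 to 13 in CL and 0 to 5 in CC. The cause of these shifts was not tested.

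The replicate numbers were not shown to pair samples: deviations of same-numbered libraries correlated from -0.411 to 0.462, and 4 of 15 libraries correlated best with their own number. With the replicate number as a block, the counts were 26, 12, 5 and 30 in LC against CC, LL against CL, CL against CC and LL against LC. They were 10, 18, 12 and 4 in LL, LC, CL and CC against Control, and 20 for the interaction. Under the block novel_mir6, novel_mir14, novel_mir27, novel_mir33 and novel_mir44 lost their calls in CL against CC (adjusted p = 0.0508 for novel_mir14). Calls were lost in other comparisons too, such as that of novel_mir9 in LC against CC.

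With all table reads as library size, the median over all miRNAs of the log2 change shifted by -0.28, -0.08, -0.18 and -0.29 in LL, LC, CL and CC against Control. It moved it by 0.21 in LC against CC, -0.10 in LL against CL, 0.10 in CL against CC, -0.20 in LL against LC and -0.30 for the interaction. With miRNA library size alone the shifts reached 0.40 in CL against CC and -0.44 in LL against CL. Zeros that can hide 9 reads limit what can be said of members under about 10 CPM.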
